A study of Homo sapiens with 27 samples.

Results

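The genes described here are 40 components of macroautophagy: the autophagosome-building machinery, the ATG8 proteins on its membrane and the receptors that bring cargo to it. They were taken by symbol from a fixed list, and all 40 symbols were found among the 13523 genes of the deposited expression table. RNA of 501mel cells, a human melanoma line that expresses MITF, TFE3 and TFEB, was read with libraries in which each transcript gives reads at its 3′ end. The study asked what TFEB and TFE3, transcription factors related to MITF and restrained by the kinase complex mTORC1, do when nutrients are present, when amino acids are removed and when mTOR is inhibited.

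The libraries fall into 9 groups, each labelled as 3 libraries. Unedited (WT) cells were non-treated, kept in HBSS, a saline with glucose and without amino acids, for 12 h, or kept in 250 nM Torin, an mTOR inhibitor, for 12 h. TFE3 KO cells, TFEB KO cells and cells lacking both factors (DKO) were each kept for 12 h as a control or in 250 nM Torin. The WT control is thus labelled non-treated and the knockout controls as 12 h controls. Each knockout genotype is a single CRISPR-Cas9 clone, so genotype and clone cannot be told apart. The libraries labelled WT HBSS replicate 3 and WT Torin replicate 1 held identical values for every gene, and both were left out, which leaves 25 libraries with 2 each in WT HBSS and WT Torin. Nothing in the labels says whether libraries came from separate cultures, so the p-values measure the spread between libraries, which may be technical.

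Autophagy encloses cytoplasm in a growing double membrane that closes and fuses with the lysosome. The ULK kinase complex starts the process, the class III PI3-kinase complex marks the membrane with a phosphoinositide, lipid-transfer proteins and scramblases enlarge it, a ubiquitin-like conjugation system attaches ATG8 proteins to it, and receptors link cargo to ATG8. mTORC1 holds the ULK complex in check when amino acids are abundant, and TFEB and TFE3 are known for binding E-box sequences near genes of lysosomes and autophagy.

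The libraries held 4147050 to 6526392 reads, recovered as whole numbers from the deposited CPM-like values, and 3 reads correspond to a value of 0.460 to 0.711. TFE3 stood at 24.3, 23.8 and 24.0 in the WT controls, at 7.59, 5.06 and 6.24 in the TFE3 KO controls and at 6.86, 5.93 and 6.26 in the DKO controls. TFEB stood at 3.45, 3.96 and 2.34 in the WT controls, 0.911, 0.75 and 1.66 in the TFEB KO controls, 0.156, 1.05 and 0.783 in the DKO controls and 0.177, 0.307 and 1.56 in the TFE3 KO controls, so its transcript level did not set these clones apart. Under Torin TFE3 was at 20.4 and 17.5 in WT, 14.0, 9.13 and 9.15 in TFE3 KO and 6.15, 6.26 and 8.46 in DKO, and TFEB at 5.63 and 4.27 in WT, 3.45, 0.628 and 0.611 in TFEB KO and 0.769, 0.19 and 0.984 in DKO. TFEB KO Torin replicate 1 thus lay within the range of the WT controls for TFEB, and TFE3 KO Torin replicate 1 held the most TFE3 of the TFE3 KO and DKO libraries. A Cas9 cut need not remove the 3′ end counted here, so these transcripts check the labels only in part. TFEB was at 30.4 and 28.0 in HBSS (log2 fold change 2.85 ± 0.36, adjusted p = 4.43e-09), and MITF rose there by 0.90 ± 0.07 on the log2 scale (adjusted p = 1.55e-15). MITF also differed between genotypes. Its controls were at 719, 778 and 788 in WT, 682, 677 and 688 in TFE3 KO, 721, 685 and 734 in TFEB KO, and 596, 538 and 532 in DKO. Under Torin it was at 735 and 732 in WT and 843, 853 and 875 in TFE3 KO. The other Torin libraries held 748, 705 and 753 in TFEB KO and 589, 601 and 551 in DKO. All 7 melanocytic markers sought were in the table, with a summed value of 5123 to 14453 per library. Of the markers of other cells, none of 3 endothelial and none of 3 epithelial genes was in the table, 1 of 4 leukocyte genes was (CD68, 29.5 to 74.2), and 3 of 4 fibroblast genes summed to 0.624 to 7.38.

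Because the factors removed in the knockouts bind E-boxes, the promoters of the members were searched for CACGTG on both strands, over 250 bases before to 50 bases after the start sites that RefSeq gives on GRCh38.p14. The study found the longer TCACGTGA beneath the binding peaks of MITF, TFEB and TFE3, and only its core CACGTG was sought here. Among the bases printed below, TCACGTGA stands in NRBF2 alone. Entries were found for 35 of the 40 members, with 43 promoters; those of RB1CC1, UVRAG, EPG5, STX17 and BNIP3L were not among them. The E-box stood in the promoters of 5 members, 11.6% of the member promoters, against 9.46% of the 14221 promoters of genes tested and 7.26% of all 35116 promoters. The related M-box TCATGTG, or on the other strand CACATGA, stood in 2 members, ATG101 and WIPI2, or 4.65% of the member promoters against 1.93% of those of genes tested and 2.92% of all. After the promoters had been read, the stress-response motifs CRE (TGACGTCA) and CARE (TTGCATCA, or TGATGCAA on the other strand) were also sought: CRE stood in 2 members, GABARAPL1 and NRBF2, or 4.65% of the member promoters against 2.81% of those of genes tested and 1.85% of all, and CARE in none of the members, 0.548% of those of genes tested and 0.866% of all. Matches of different motifs did not overlap in the members, and a match is a description of the sequence only. The 250 bases before the start site are printed for the 5 members with an E-box and for GABARAPL1, the member with the largest change, with E-box and CRE letters in capitals. The regions are chr3:112561963-112562212, minus strand, for ATG3; chr14:55411831-55412080, minus strand, for ATG14; chr10:63133078-63133327, plus strand, for NRBF2; chr10:131981924-131982173, minus strand, for BNIP3; chr12:64451870-64452119, plus strand, for TBK1; and chr12:10212627-10212876, plus strand, for GABARAPL1, each read 5′ to 3′ on the strand of its gene.
ATG3: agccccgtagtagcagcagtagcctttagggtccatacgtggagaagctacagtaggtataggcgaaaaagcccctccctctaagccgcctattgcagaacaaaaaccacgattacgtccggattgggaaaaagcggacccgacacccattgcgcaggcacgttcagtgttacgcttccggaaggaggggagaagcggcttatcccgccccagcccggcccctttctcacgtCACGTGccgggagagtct
ATG14: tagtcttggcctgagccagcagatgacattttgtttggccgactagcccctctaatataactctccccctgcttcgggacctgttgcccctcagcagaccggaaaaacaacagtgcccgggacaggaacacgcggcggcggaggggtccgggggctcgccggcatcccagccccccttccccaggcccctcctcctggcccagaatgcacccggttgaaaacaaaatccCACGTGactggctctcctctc
NRBF2: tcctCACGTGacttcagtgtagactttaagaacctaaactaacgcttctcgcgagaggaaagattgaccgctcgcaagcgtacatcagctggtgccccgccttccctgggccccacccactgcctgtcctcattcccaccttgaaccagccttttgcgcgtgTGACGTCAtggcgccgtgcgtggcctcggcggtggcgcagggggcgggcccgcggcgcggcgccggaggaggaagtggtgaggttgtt
BNIP3: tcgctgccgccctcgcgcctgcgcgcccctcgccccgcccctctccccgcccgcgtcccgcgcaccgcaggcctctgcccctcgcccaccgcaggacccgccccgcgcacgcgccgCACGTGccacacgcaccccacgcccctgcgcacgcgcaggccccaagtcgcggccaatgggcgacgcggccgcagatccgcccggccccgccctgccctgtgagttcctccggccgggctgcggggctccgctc
TBK1: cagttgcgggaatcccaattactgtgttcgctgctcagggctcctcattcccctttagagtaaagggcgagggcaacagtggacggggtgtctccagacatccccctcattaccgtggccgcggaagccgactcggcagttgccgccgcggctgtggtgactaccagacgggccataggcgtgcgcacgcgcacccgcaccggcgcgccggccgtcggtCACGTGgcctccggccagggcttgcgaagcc
GABARAPL1: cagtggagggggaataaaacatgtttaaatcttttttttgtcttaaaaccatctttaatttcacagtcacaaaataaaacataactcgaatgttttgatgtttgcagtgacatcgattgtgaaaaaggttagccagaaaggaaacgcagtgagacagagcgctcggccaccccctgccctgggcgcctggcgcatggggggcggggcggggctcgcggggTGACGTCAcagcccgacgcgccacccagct

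The E-box begins 18 bases before the start in ATG3, 21 in ATG14, 31 in TBK1, 134 in BNIP3 and 246 in NRBF2, and ATG3 has another 6 bases after its start. The CRE begins 30 bases before the start of GABARAPL1 and 88 before that of NRBF2.

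The first question was how HBSS changed these genes in WT cells. The study grew its human melanoma lines in RPMI medium with serum. Lack of amino acids thus cannot be told apart from other differences between HBSS and that medium. HBSS raised more members than it lowered: 22 of the 40 rose and 4 fell at an adjusted p under 0.05 (limma), and 5 of the 22 rose at least 2-fold. Among the 13052 genes tested, 23.6% rose, 24.7% fell and 13.1% changed at least 2-fold in the same comparison. The median log2 fold change was 0.37 over the 40 members and -0.03 over all genes. The largest increases were those of GABARAPL1, OPTN, RB1CC1, ATG14 and EPG5, which belong to 5 different steps. Values are relative to each library's total, so in these bulk samples fewer cells that express a gene and less of its RNA per cell cannot be told apart.

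**Figure D1:**
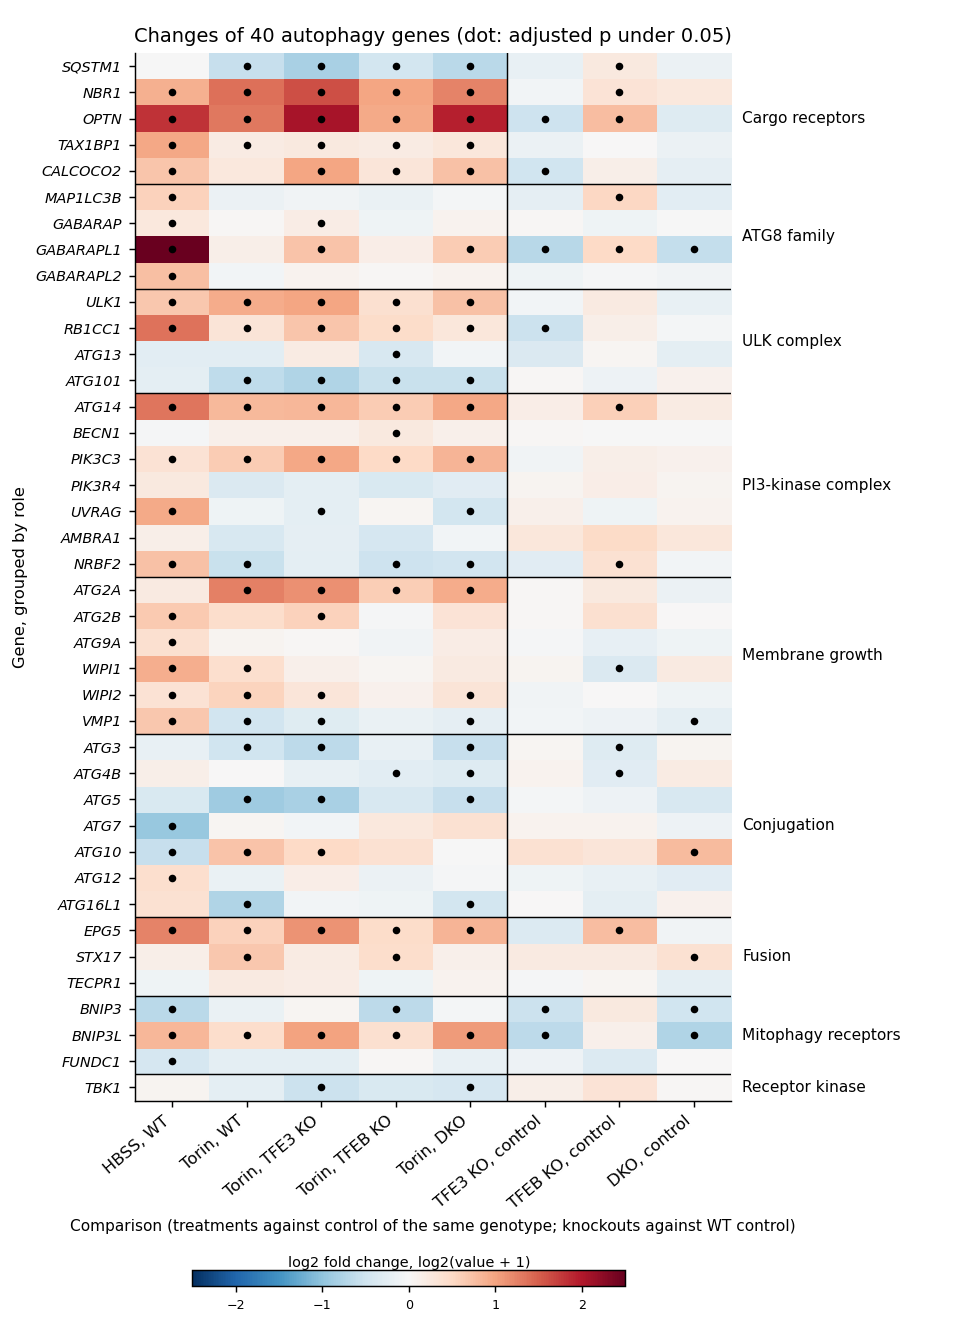
Log2 fold changes (colour, log2(value + 1) scale) of the 40 genes, in rows by role, in 5 treatment comparisons and 3 comparisons of knockout controls with WT controls, in columns. A black dot marks an adjusted p under 0.05: HBSS has 26 dots, and the Torin columns have 21 (WT), 23 (TFE3 KO), 19 (TFEB KO) and 23 (DKO).

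Among the cargo receptors, 4 of 5 rose in HBSS. OPTN, optineurin, which binds ubiquitin on damaged mitochondria and invading bacteria, stood at 20.9, 20.2 and 17.8 in the WT control libraries and at 76.2 and 65.7 in HBSS, a log2 fold change of 1.80 ± 0.13 (SE; adjusted p = 8.70e-16). Each HBSS library was far above each control library. NBR1, a receptor for ubiquitinated aggregates and peroxisomes, was at 45.0, 48.9 and 41.6 in the controls and 83.1 and 84.8 in HBSS (0.88 ± 0.11, adjusted p = 1.35e-09), again without overlap. TAX1BP1 (0.97, adjusted p = 6.16e-15) and CALCOCO2, or NDP52, a receptor for bacteria and mitochondria (0.70, adjusted p = 1.10e-05), also rose. SQSTM1, the p62 receptor and the most used reporter of autophagic flux at the protein level, did not pass: its controls were at 391, 381 and 396 and its HBSS libraries at 390.1 and 378, a log2 fold change of -0.02 (adjusted p = 0.863). Its libraries overlapped between the groups. The library values of SQSTM1, ATG7, ATG101, WIPI1 and BNIP3 were chosen for printing after they had been seen.

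All 4 ATG8 genes rose in HBSS, by very different amounts. GABARAPL1, one of the GABARAP-type ATG8 proteins, stood at 23.3, 33.3 and 31.6 in the controls and at 168 and 161 in HBSS. Both HBSS libraries lay far above the controls, and the change was the largest among the 40 members (2.46 ± 0.15, adjusted p = 1.68e-18). MAP1LC3B, whose protein LC3B is the usual marker of autophagosomes, was at 82.0, 55.0 and 73.2 in the controls and 109 and 98.8 in HBSS (0.58 ± 0.13, adjusted p = 0.000299). Its controls were spread, but none reached the HBSS libraries. GABARAPL2 (0.76, adjusted p = 3.70e-10) and GABARAP (0.27, adjusted p = 0.0107) rose less than 2-fold.

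Of the 4 ULK complex genes, RB1CC1 and ULK1 rose in HBSS. RB1CC1, the FIP200 scaffold that holds the complex together, stood at 103, 112 and 107 in the controls and 273 and 282 in HBSS (1.36 ± 0.09, adjusted p = 8.89e-17), with a wide gap between the groups. ULK1, the kinase itself, changed by 0.68 (adjusted p = 0.00107). ATG13 (-0.25, adjusted p = 0.165) and ATG101 (-0.25, adjusted p = 0.136), the HORMA-domain subunits, did not pass.

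In the PI3-kinase complex, 4 of 7 genes rose in HBSS and none fell. ATG14, which directs the complex to sites of autophagosome formation, stood at 18.7, 21.8 and 21.9 in the controls and 53.2 and 55.0 in HBSS (1.34 ± 0.16, adjusted p = 2.11e-09), with no overlap. UVRAG, which takes the place of ATG14 in the endosomal form of the complex, was at 75.1, 61.8 and 64.8 in the controls and 125 and 137 in HBSS (0.96 ± 0.11, adjusted p = 1.23e-09). NRBF2, an accessory subunit of the ATG14 form, was at 35.2, 38.6 and 43.5 in the controls and 61.9 and 68.2 in HBSS (0.72 ± 0.15, adjusted p = 5.11e-05). For both genes each HBSS library lay above each control library. PIK3C3, the catalytic subunit, rose by 0.36 (adjusted p = 0.0294), while BECN1, PIK3R4 and AMBRA1 did not pass, with log2 fold changes of -0.02, 0.24 and 0.15.

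Of the 6 genes of membrane growth, 5 rose in HBSS. VMP1, a scramblase of the endoplasmic reticulum, was at 129, 128 and 127 in the controls and 209.9 and 198 in HBSS (0.67 ± 0.09, adjusted p = 2.47e-08), and the groups were far apart. WIPI1 (0.90, adjusted p = 3.17e-08) and WIPI2 (0.36, adjusted p = 0.00227), which bind the phosphoinositide, ATG2B, a lipid-transfer protein (0.66, adjusted p = 0.0069), and ATG9A, the scramblase of autophagic vesicles (0.40, adjusted p = 0.00374), also rose. ATG2A, the paralog of ATG2B, did not pass (0.23, adjusted p = 0.189).

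Of the 7 conjugation genes, 1 rose and 2 fell in HBSS. ATG12 rose (0.43, adjusted p = 0.0105), and ATG7, the E1-like enzyme that activates both ubiquitin-like proteins, fell by 0.94 (adjusted p = 0.00864) from a low level, at 3.62, 4.75 and 4.29 in the controls and 1.38 and 2.09 in HBSS. ATG10, the E2-like enzyme for ATG12, was at 6.57, 4.35 and 6.64 in the controls and 2.07 and 5.65 in HBSS (-0.58 ± 0.24, adjusted p = 0.0386), and here the HBSS libraries fell on either side of the lowest control. ATG3, ATG4B, ATG5 and ATG16L1 did not pass, with log2 fold changes between -0.38 and 0.39. Among the 3 fusion genes EPG5, a tether that lets autophagosomes meet lysosomes, was at 6.24, 10.5 and 9.76 in the controls and 23.5 and 20.3 in HBSS (1.24 ± 0.20, adjusted p = 8.71e-07), without overlap. STX17, the SNARE of the autophagosome, and TECPR1 did not pass.

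The mitophagy receptors went in different directions in HBSS. BNIP3L, also called NIX, was at 56.7, 50.5 and 55.2 in the controls and 96.7 and 97.1 in HBSS (0.83 ± 0.12, adjusted p = 6.14e-08). Its relative BNIP3 fell by 0.68 (adjusted p = 5.05e-05) and FUNDC1 by 0.42 (adjusted p = 0.0199). TBK1, the kinase that phosphorylates OPTN and other receptors, did not pass (0.06, adjusted p = 0.824). Of the 5 members whose promoter holds an E-box, ATG14 and NRBF2 rose, BNIP3 fell, and ATG3 and TBK1 did not pass. Of the 26 calls in HBSS, 19 held whichever library was left out. The others were lost on leaving out WT control replicate 1 (ATG10, FUNDC1, adjusted p 0.0643 to 0.114), WT control replicate 2 (FUNDC1, adjusted p 0.0613), WT control replicate 3 (ATG10, PIK3C3, adjusted p 0.122 to 0.169), WT HBSS replicate 1 (GABARAP, ATG2B, ATG7, ATG10, ATG12, PIK3C3, FUNDC1, adjusted p 0.054 to 0.958) and WT HBSS replicate 2 (GABARAP, PIK3C3, adjusted p 0.0547 to 0.0617).

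Torin was then compared with the control of the same genotype. It changed the members in both directions in each genotype. In WT cells 14 rose and 7 fell, 3 of them at least 2-fold, against 20.5%, 23.4% and 9.66% of all genes. In TFE3 KO cells 16 rose and 7 fell, 5 at least 2-fold, against 25.4%, 26.0% and 11.7%. In TFEB KO cells 13 rose and 6 fell, none at least 2-fold, against 17.4%, 21.0% and 5.02%. In DKO cells 13 rose and 10 fell, 3 at least 2-fold, against 25.4%, 26.2% and 11.1%. The member medians were 0.06, 0.15, 0.03 and 0.09 on the log2 scale in the order WT, TFE3 KO, TFEB KO and DKO, and the medians of all genes were 0.00, 0.02, 0.00 and 0.02.

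These 4 comparisons use different control libraries, and 10 members rose in all of them: NBR1, OPTN, TAX1BP1, ULK1, RB1CC1, ATG2A, ATG14, PIK3C3, EPG5 and BNIP3L. SQSTM1 and ATG101 fell in all 4. On leaving out 1 library at a time, TAX1BP1, RB1CC1, EPG5 and ATG101 were lost in WT, and TAX1BP1, ULK1 and EPG5 in TFEB KO. Among all genes tested, 10.6% rose in all 4 and 14.2% fell in all 4. Of the 10 members, 3 are among the 5 cargo receptors, and none is an ATG8 or conjugation gene.

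NBR1 had the lowest adjusted p of the members in WT cells under Torin. Its libraries were at 45.0, 48.9 and 41.6 in the WT control and 119 and 118 in WT Torin (1.37 ± 0.11, adjusted p = 5.78e-15). In TFE3 KO it rose from 46.6, 38.8 and 42.9 to 135, 131 and 129 (1.61 ± 0.09, adjusted p = 2.13e-19), in TFEB KO from 53.3, 59.0 and 59.3 to 107, 121 and 113 (0.98 ± 0.09, adjusted p = 9.04e-12) and in DKO from 60.6, 49.5 and 53.5 to 143, 117 and 129 (1.24 ± 0.09, adjusted p = 2.29e-15). In each genotype every Torin library was above every control library. OPTN rose from 20.9, 20.2 and 17.8 to 49.2 and 51.0 in WT (1.31 ± 0.13, adjusted p = 3.11e-11). It rose from 11.8, 14.6 and 14.0 to 62.3, 54.5 and 62.2 in TFE3 KO (2.07 ± 0.12, adjusted p = 1.20e-19), from 33.7, 33.2 and 35.8 to 70.0, 64.4 and 66.8 in TFEB KO (0.95 ± 0.12, adjusted p = 1.12e-08) and from 14.5, 13.6 and 18.8 to 60.8, 66.8 and 58.8 in DKO (1.94 ± 0.12, adjusted p = 1.60e-18). Under Torin the OPTN libraries of the 3 knockouts lay between 54.5 and 70.0, while their controls ranged from 11.8 to 35.8. TAX1BP1 rose by 0.20 to 0.28 on the log2 scale in the 4 genotypes. CALCOCO2, with WT controls at 40.1, 38.8 and 47.6 and WT Torin libraries at 50.6 and 51.2, did not pass in WT (0.27, adjusted p = 0.0801), and rose from 32.8, 27.9 and 27.3 to 65.5, 57.4 and 53.5 in TFE3 KO (0.98 ± 0.11, adjusted p = 5.69e-10). It also rose in TFEB KO (0.30) and DKO (0.74).

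SQSTM1 moved opposite to NBR1 and OPTN under Torin. Its libraries were at 391, 381 and 396 in the WT control and 259 and 262 in WT Torin (-0.58 ± 0.08, adjusted p = 2.63e-08). In TFE3 KO they were at 357, 329 and 345 in the control and 194, 185 and 211 in Torin (-0.80 ± 0.07, adjusted p = 5.90e-14). In TFEB KO they were at 465, 475 and 440.1 in the control and 315, 366 and 331 in Torin (-0.45 ± 0.07, adjusted p = 6.53e-07), and in DKO at 349, 351 and 351 in the control and 226, 227 and 207 in Torin (-0.67 ± 0.07, adjusted p = 1.63e-11). The Torin libraries lay below the controls of the same genotype in each case, and those of TFEB KO were the highest of the 4 Torin groups.

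**Figure D2:**
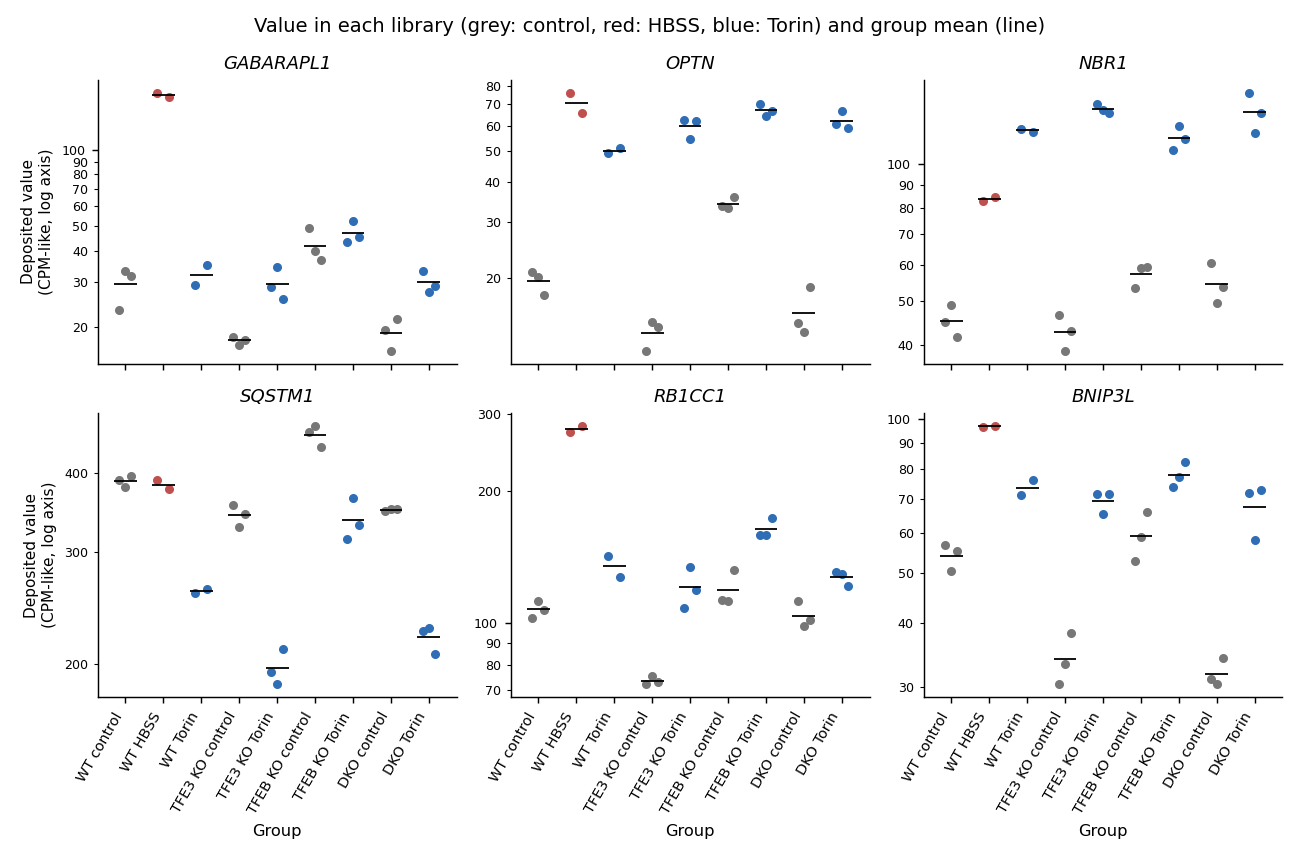
Deposited value (CPM-like, log axis) of 6 members in each of the 25 libraries by group; points are libraries, lines group means, with controls in grey, HBSS in red and Torin in blue. GABARAPL1 stands out in HBSS, OPTN and NBR1 are above the controls under both treatments, and SQSTM1 is lower under Torin and not in HBSS.

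The ATG8 genes, all of them higher in HBSS, gave few calls under Torin. GABARAPL1 was at 23.3, 33.3 and 31.6 in the WT control and 29.3 and 35.1 in WT Torin (0.14 ± 0.15, adjusted p = 0.491), and the libraries overlapped. It rose in TFE3 KO, from 18.2, 17.0 and 17.8 to 28.6, 34.5 and 25.8 (0.71 ± 0.14, adjusted p = 2.25e-05), and in DKO, from 19.5, 16.0 and 21.4 to 33.4, 27.5 and 29.1 (0.64 ± 0.14, adjusted p = 0.000108). In TFEB KO, with controls at 49.0, 39.9 and 36.6 and Torin libraries at 43.1, 52.5 and 45.4, it did not pass (0.17, adjusted p = 0.343). The Torin libraries of TFE3 KO and DKO lay within or just above the range of the WT controls, from lower controls of their own. GABARAP rose in TFE3 KO (0.19, adjusted p = 0.0418), and MAP1LC3B and GABARAPL2 passed in none of the 4 genotypes.

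Among the genes that start and mark the membrane, ULK1 rose by 0.41 to 0.98 on the log2 scale under Torin in the 4 genotypes, ATG14 by 0.64 to 0.97 and PIK3C3 by 0.50 to 0.97. ATG14 was at 42.9 and 32.2 in WT Torin, 41.3, 43.9 and 42.0 in TFE3 KO Torin, 46.4, 53.7 and 49.7 in TFEB KO Torin and 51.7, 44.0 and 47.4 in DKO Torin, above each library of its own control, which ranged from 18.7 to 43.5. RB1CC1 was at 142 and 127 in WT Torin (0.33 ± 0.09, adjusted p = 0.00449), well below its HBSS libraries. In the knockouts RB1CC1 rose by 0.70 (TFE3 KO), 0.46 (TFEB KO) and 0.29 (DKO). ATG101, in contrast, was at 75.2 and 47.2 in WT Torin against 105, 94.2 and 81.0 in the control (-0.63 ± 0.14, adjusted p = 0.00021), and fell by 0.55 to 0.75 in the knockouts. NRBF2 fell in WT, from 35.2, 38.6 and 43.5 to 27.2 and 24.9 (-0.56 ± 0.15, adjusted p = 0.00146), and by 0.52 in TFEB KO and 0.47 in DKO. UVRAG fell in TFE3 KO (-0.25) and DKO (-0.46), and did not pass in the other 2 genotypes. BECN1, the scaffold of the complex, rose in TFEB KO (0.25, adjusted p = 0.0102), though the difference of that response from the WT response did not pass (0.12, adjusted p = 0.716), and ATG13 fell in TFEB KO (-0.40, adjusted p = 0.0154).

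ATG2A was the membrane-growth gene with the largest response to Torin. It was at 26.0, 20.0 and 26.3 in the WT control and 54.6 and 63.8 in WT Torin (1.27 ± 0.15, adjusted p = 6.44e-10), and rose by 1.15 in TFE3 KO, 0.61 in TFEB KO and 0.92 in DKO. The Torin and control libraries did not overlap in any genotype. VMP1 fell in WT, from 129, 128 and 127 to 90.2 and 92.2 (-0.48 ± 0.09, adjusted p = 1.99e-05), in TFE3 KO (-0.31) and in DKO (-0.22). WIPI2 rose in WT (0.56), TFE3 KO (0.31) and DKO (0.32), WIPI1 in WT (0.41), and ATG2B in TFE3 KO (0.57).

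Most conjugation genes that passed under Torin were lower. ATG5, which is joined to ATG12, fell in WT (-0.88), TFE3 KO (-0.81) and DKO (-0.58). ATG3, the E2-like enzyme that passes ATG8 to lipid and a gene with an E-box in its promoter, fell in the same 3 genotypes (-0.49, -0.66 and -0.57). ATG16L1, which places the conjugating enzymes on the membrane, was at 19.4, 24.0 and 24.8 in the WT control and 15.7 and 10.7 in WT Torin (-0.76 ± 0.18, adjusted p = 0.000515), and fell in DKO (-0.46). ATG4B, a protease that trims ATG8, fell in TFEB KO (-0.25) and DKO (-0.33). ATG10 was the exception, at 11.5 and 8.77 in WT Torin, above its controls (0.71 ± 0.24, adjusted p = 0.0133), and it also rose in TFE3 KO (0.51).

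Among the fusion genes, EPG5 rose under Torin by 0.57 in WT, 1.12 in TFE3 KO, 0.45 in TFEB KO and 0.85 in DKO. Its Torin libraries were at 14.1 and 12.6, 13.4, 17.1 and 16.0, 21.4, 22.6 and 20.2 and 13.5, 14.6 and 18.3, in the same order of genotypes. STX17 rose in WT (0.67, adjusted p = 2.19e-05) and TFEB KO (0.43, adjusted p = 0.00183). BNIP3L was at 71.0 and 76.1 in WT Torin (0.44 ± 0.12, adjusted p = 0.00204). In TFE3 KO it went from 30.4, 33.3 and 38.2 to 71.4, 65.2 and 71.4 (1.01 ± 0.10, adjusted p = 1.93e-11) and in DKO from 31.0, 30.3 and 34.1 to 71.8, 58.2 and 72.6 (1.06 ± 0.10, adjusted p = 6.12e-12). In TFEB KO it went from 52.8, 58.9 and 66.0 to 73.6, 77.3 and 82.7 (0.39 ± 0.10, adjusted p = 0.00227). The Torin libraries of the 4 genotypes spanned 58.2 to 82.7, and each TFEB KO library lay above each TFE3 KO and DKO library. Each Torin library lay above the controls of its own genotype, which were lowest in TFE3 KO and DKO. BNIP3 fell under Torin in TFEB KO (-0.66, adjusted p = 2.33e-05), and TBK1 fell in DKO (-0.43, adjusted p = 0.0435) as well as in TFE3 KO (-0.53, adjusted p = 0.0126).

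Leaving out 1 library at a time, 14 of the 21 Torin calls in WT held, 18 of 23 in TFE3 KO, 13 of 19 in TFEB KO and 19 of 23 in DKO. The others in WT were lost on leaving out WT control replicate 1 (EPG5, adjusted p 0.161), WT control replicate 2 (TAX1BP1, ATG10, adjusted p 0.0737 to 0.0856), WT control replicate 3 (TAX1BP1, adjusted p 0.0604), WT Torin replicate 2 (TAX1BP1, RB1CC1, ATG10, WIPI1, EPG5, adjusted p 0.111 to 0.223) and WT Torin replicate 3 (ATG16L1, ATG101, adjusted p 0.0726 to 0.115). In TFE3 KO they were lost on leaving out TFE3 KO control replicate 1 (ATG10, UVRAG, TBK1, adjusted p 0.0603 to 0.106), TFE3 KO control replicate 2 (GABARAP, ATG10, UVRAG, adjusted p 0.0509 to 0.101), TFE3 KO control replicate 3 (GABARAP, ATG2B, ATG10, UVRAG, TBK1, adjusted p 0.0552 to 0.218), TFE3 KO Torin replicate 1 (GABARAP, adjusted p 0.179), TFE3 KO Torin replicate 2 (ATG10, UVRAG, adjusted p 0.124 to 0.298) and TFE3 KO Torin replicate 3 (GABARAP, ATG10, TBK1, adjusted p 0.0532 to 0.143). In TFEB KO they were lost on leaving out TFEB KO control replicate 1 (TAX1BP1, ATG13, EPG5, adjusted p 0.0561 to 0.102), TFEB KO control replicate 2 (CALCOCO2, ULK1, ATG4B, EPG5, adjusted p 0.0691 to 0.222), TFEB KO control replicate 3 (CALCOCO2, ULK1, EPG5, adjusted p 0.0586 to 0.233), TFEB KO Torin replicate 1 (CALCOCO2, ULK1, ATG4B, EPG5, adjusted p 0.0566 to 0.17), TFEB KO Torin replicate 2 (TAX1BP1, CALCOCO2, ATG4B, ATG13, EPG5, adjusted p 0.0586 to 0.112) and TFEB KO Torin replicate 3 (CALCOCO2, EPG5, adjusted p 0.0559 to 0.0975). In DKO they were lost on leaving out DKO control replicate 1 (VMP1, adjusted p 0.0637), DKO control replicate 2 (ATG16L1, TBK1, adjusted p 0.0502 to 0.0817), DKO control replicate 3 (ATG16L1, TBK1, adjusted p 0.0622 to 0.125), DKO Torin replicate 1 (ATG5, TBK1, adjusted p 0.0726 to 0.104), DKO Torin replicate 2 (ATG16L1, VMP1, TBK1, adjusted p 0.0655 to 0.104) and DKO Torin replicate 3 (TBK1, adjusted p 0.0744). With the identical column kept as Torin the counts were 19 in WT, 17 in TFE3 KO, 13 in TFEB KO and 16 in DKO, and with it kept as HBSS 21, 23, 19 and 23.

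HBSS and Torin share the WT control libraries, so the treatments were also compared with each other directly. Of the 40 members, 22 were higher and 6 lower in HBSS than in Torin, and 8 differed at least 2-fold. The shares of all genes were 26.1%, 23.1% and 16.6%, and the median difference was 0.39 over the members and -0.01 over all genes. GABARAPL1 differed most (2.33 ± 0.17, adjusted p = 4.14e-16), with HBSS libraries at 168 and 161 and Torin libraries at 29.3 and 35.1. NRBF2 (1.29 ± 0.16, adjusted p = 4.42e-09), VMP1 (1.15 ± 0.10, adjusted p = 1.54e-13), ATG16L1 (1.14 ± 0.20, adjusted p = 3.74e-06), UVRAG (1.05 ± 0.13, adjusted p = 1.49e-09) and RB1CC1 (1.04 ± 0.10, adjusted p = 1.42e-11) were also at least 2-fold higher in HBSS. NRBF2 and VMP1 lay above the WT controls in HBSS and below them in Torin. The other ATG8 genes were higher in HBSS as well, MAP1LC3B by 0.73, GABARAPL2 by 0.82 and GABARAP by 0.23, and so was SQSTM1 (0.56, adjusted p = 3.26e-07). ATG10, at 2.07 and 5.65 in HBSS and 11.5 and 8.77 in Torin, was lower in HBSS (-1.29 ± 0.26, adjusted p = 5.52e-05). ATG2A, at 28.3 and 28.3 and 54.6 and 63.8, was lower too (-1.04 ± 0.16, adjusted p = 4.86e-07), as were NBR1 (-0.49), ATG7 (-0.99), STX17 (-0.52) and BNIP3 (-0.50).

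The direct comparison rests on 2 libraries a side. With the identical column kept as HBSS 29 of the 40 passed, against 28. With it kept as Torin 15 passed, and with it kept in both groups 14. For the members listed under other observations, the column lay nearer to the other WT HBSS libraries than to the WT Torin libraries. Kept in both groups, it also puts the same values on each side. These lower counts therefore cannot tell how firm the calls are. Without 1 library at a time 15 of the 28 calls held, and the others were lost on leaving out WT HBSS replicate 1 (OPTN, GABARAP, ATG3, ATG7, ATG9A, PIK3R4, EPG5, BNIP3, adjusted p 0.0769 to 0.273), WT HBSS replicate 2 (CALCOCO2, GABARAP, ATG3, ATG9A, ATG14, ATG101, adjusted p 0.0603 to 0.317), WT Torin replicate 2 (GABARAP, ATG3, ATG9A, PIK3R4, BNIP3L, adjusted p 0.0699 to 0.876) and WT Torin replicate 3 (GABARAP, ATG3, ATG7, ATG14, ATG101, WIPI1, EPG5, BNIP3, adjusted p 0.0694 to 0.809). The Torin calls of NRBF2, VMP1 and ATG16L1 in WT were also lost when the column was kept as Torin (adjusted p 0.756, 0.936 and 0.145). In these genes the column held 68.7, 237 and 27.8, above the other WT Torin libraries, so keeping it raised the mean of that group.

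**Figure D3:**
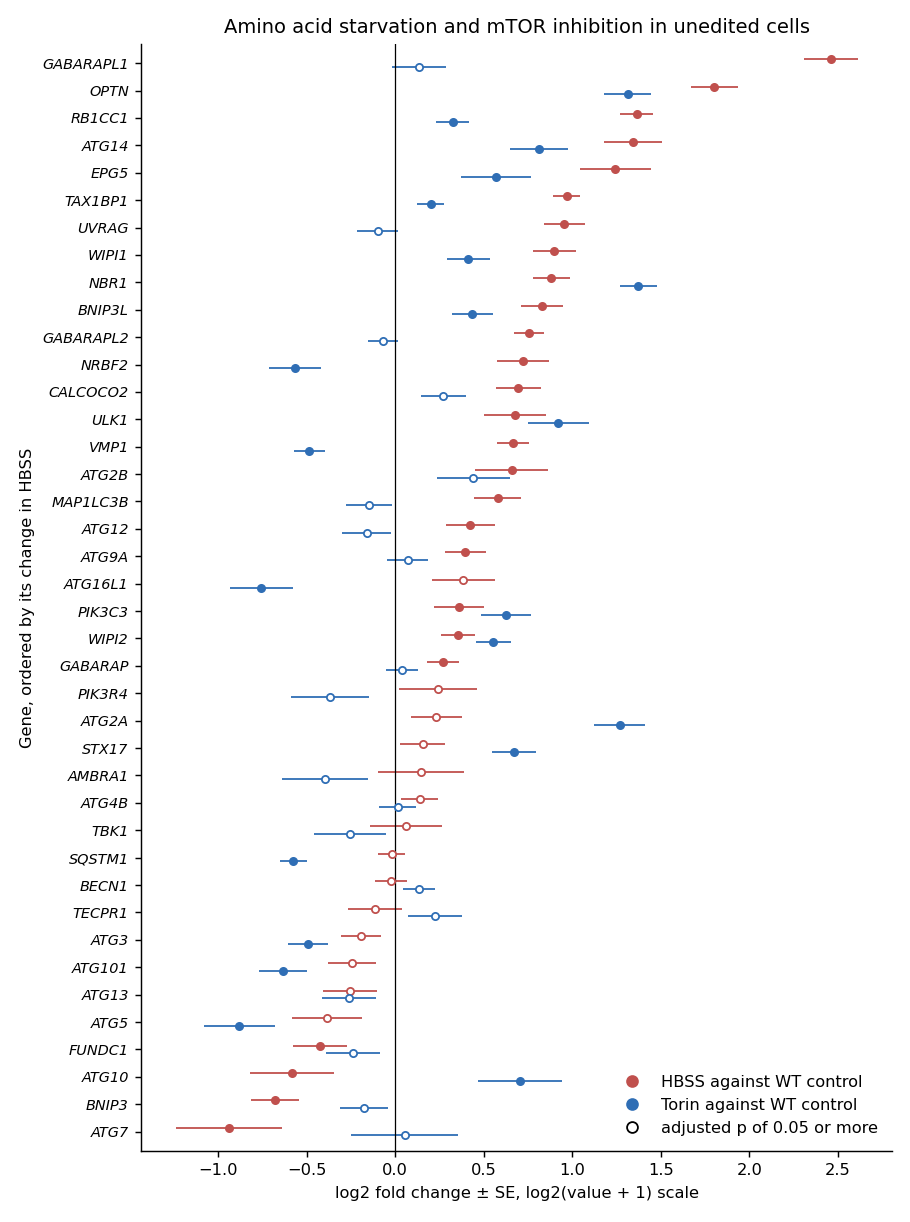
Log2 fold change with its SE (horizontal axis, log2(value + 1) scale) of each of the 40 genes, ordered by the change in HBSS, for HBSS (red) and Torin (blue) against the same WT controls; open points had an adjusted p of 0.05 or more. GABARAPL1 is at 2.46 in HBSS and 0.14 in Torin, ATG2A at 0.23 and 1.27, and NRBF2 and VMP1 lie on opposite sides of 0.

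The knockout controls were compared with the WT controls, both in fed cells. The WT controls were labelled non-treated and the knockout controls as 12 h controls. Loss of a factor, clone and control handling therefore cannot be told apart here. In TFE3 KO, 6 members fell and none rose, against 5.84% and 3.57% of all genes. In TFEB KO, 8 rose and 3 fell, against 7.46% and 7.18%. In DKO, 2 rose and 4 fell, against 5.64% and 7.49%. The member medians were -0.06 in TFE3 KO, 0.13 in TFEB KO and -0.08 in DKO, and the medians of all genes were within 0.01 of 0. No member changed 2-fold against WT. The 3 comparisons share the WT control libraries, and their values are set side by side.

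GABARAPL1 was at 23.3, 33.3 and 31.6 in the WT controls, 18.2, 17.0 and 17.8 in TFE3 KO, 49.0, 39.9 and 36.6 in TFEB KO and 19.5, 16.0 and 21.4 in DKO. Its level rose in TFEB KO (0.50 ± 0.14, adjusted p = 0.00891), whereas it fell in DKO (-0.60 ± 0.14, adjusted p = 0.00142) and in TFE3 KO (-0.69 ± 0.14, adjusted p = 0.000306). None of these groups overlapped the WT controls. OPTN fell in TFE3 KO (-0.51 ± 0.12, adjusted p = 0.00268) and rose in TFEB KO (0.78 ± 0.12, adjusted p = 7.25e-06), and in DKO it did not pass (-0.32, adjusted p = 0.0696). RB1CC1 was at 72.2, 75.6 and 73.0 in TFE3 KO, below the WT controls of 103, 112 and 107 (-0.54 ± 0.08, adjusted p = 7.10e-06), and CALCOCO2 fell there too (-0.51 ± 0.11, adjusted p = 0.00162). Both mitophagy receptors of the BNIP3 type were lower in the TFE3 KO and DKO controls than in the WT controls. BNIP3L stood at 30.4, 33.3 and 38.2 in TFE3 KO and 31.0, 30.3 and 34.1 in DKO, against 56.7, 50.5 and 55.2 in WT (-0.66 ± 0.10, adjusted p = 6.73e-06 and -0.75 ± 0.10, adjusted p = 4.41e-07). BNIP3 stood at 35.1, 38.0 and 33.4 in TFE3 KO and 31.6, 38.7 and 40.2 in DKO, against 55.7, 48.1 and 52.5 in WT (-0.54 ± 0.12, adjusted p = 0.00178 and -0.49 ± 0.12, adjusted p = 0.0036). In TFEB KO neither passed (0.12 and 0.25).

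In TFEB KO the largest increases were those of OPTN and EPG5. EPG5 was at 16.2, 15.7 and 14.3 against 6.24, 10.5 and 9.76 in WT (0.76 ± 0.18, adjusted p = 0.00204), and MAP1LC3B at 84.9, 109.8 and 105 against 82.0, 55.0 and 73.2 (0.51 ± 0.12, adjusted p = 0.00196). Neither gene's libraries overlapped. ATG14 (0.59), NRBF2 (0.37), NBR1 (0.34) and SQSTM1 (0.24) rose less, and WIPI1 (-0.36), ATG3 (-0.32) and ATG4B (-0.29) fell. Of the members with an E-box in the promoter, BNIP3 fell in TFE3 KO and DKO, ATG14 and NRBF2 rose and ATG3 fell in TFEB KO, and TBK1 passed in none of the 3. In DKO, ATG10 (0.80) and STX17 (0.39) rose and VMP1 (-0.24) fell.

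All 6 TFE3 KO calls held whichever library was left out. In TFEB KO 3 of 11 did (OPTN, MAP1LC3B and EPG5), and the others were lost on leaving out TFEB KO control replicate 1 (GABARAPL1, ATG3, ATG4B, ATG14, NRBF2, adjusted p 0.0921 to 0.218), TFEB KO control replicate 2 (SQSTM1, ATG3, WIPI1, adjusted p 0.0592 to 0.155), TFEB KO control replicate 3 (ATG4B, NRBF2, adjusted p 0.163 to 0.188), WT control replicate 1 (GABARAPL1, ATG3, WIPI1, NRBF2, adjusted p 0.115 to 0.188), WT control replicate 2 (ATG4B, NRBF2, adjusted p 0.0998 to 0.126) and WT control replicate 3 (NBR1, ATG3, ATG4B, adjusted p 0.0538 to 0.114). Fitted on the compared groups alone, TFEB KO had 5 calls. In DKO 3 of 6 held (GABARAPL1, BNIP3 and BNIP3L), and the others were lost on leaving out DKO control replicate 1 (VMP1, adjusted p 0.0504), DKO control replicate 2 (VMP1, adjusted p 0.136), DKO control replicate 3 (VMP1, adjusted p 0.079), WT control replicate 1 (VMP1, STX17, adjusted p 0.0802 to 0.0902), WT control replicate 2 (ATG10, VMP1, adjusted p 0.0767 to 0.0878) and WT control replicate 3 (VMP1, STX17, adjusted p 0.0732 to 0.0805). With the identical column kept as Torin, 4 members passed in TFE3 KO, 3 in TFEB KO and 3 in DKO, and with it kept as HBSS the counts were 6, 11 and 6.

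**Figure D4:**
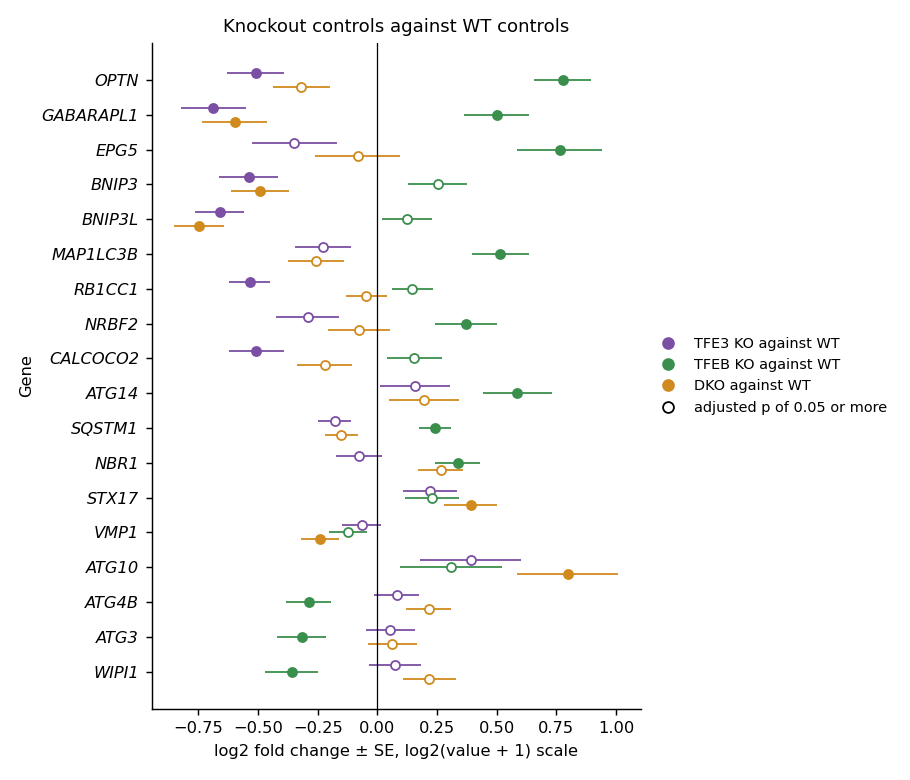
Log2 fold change with its SE (horizontal axis, log2(value + 1) scale) of the 18 genes that passed in at least 1 knockout control against the WT controls, for TFE3 KO (purple), TFEB KO (green) and DKO (orange); open points had an adjusted p of 0.05 or more. GABARAPL1 and OPTN are below 0 in TFE3 KO and above 0 in TFEB KO, and BNIP3 and BNIP3L are lower in TFE3 KO and DKO.

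The knockouts were also compared with each other. Of the members, 13 were lower and 3 higher in the TFE3 KO controls than in the TFEB KO controls, 3 of them at least 2-fold, against 15.6%, 14.3% and 4.05% of all genes. The median difference was -0.13 over the members and 0.00 over all genes. OPTN, at 11.8, 14.6 and 14.0 in TFE3 KO and 33.7, 33.2 and 35.8 in TFEB KO, differed most (-1.29 ± 0.12, adjusted p = 6.23e-12). GABARAPL1 (-1.19 ± 0.14, adjusted p = 1.91e-09) and EPG5, at 6.36, 5.83 and 7.64 and 16.2, 15.7 and 14.3 (-1.11 ± 0.18, adjusted p = 2.89e-06), were also at least 2-fold lower in TFE3 KO. None of these groups overlapped. BNIP3 (-0.79), BNIP3L (-0.79), MAP1LC3B (-0.74), RB1CC1 (-0.68), NRBF2 (-0.66) and CALCOCO2 (-0.66) followed, with SQSTM1 (-0.42), NBR1 (-0.41), ATG13 (-0.42) and ATG14 (-0.43). WIPI1 (0.43), ATG3 (0.37) and ATG4B (0.37) were higher in TFE3 KO. Of the 16 calls, 14 held without any 1 library, and the others were lost on leaving out TFE3 KO control replicate 2 (ATG14, adjusted p 0.107), TFE3 KO control replicate 3 (ATG13, ATG14, adjusted p 0.0661 to 0.0802) and TFEB KO control replicate 1 (ATG13, ATG14, adjusted p 0.0707 to 0.335).

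TFE3 KO and DKO cells were also compared with WT cells under Torin. In TFE3 KO Torin 1 member was higher and 2 lower than in WT Torin, or 2.5% and 5% of the 40 against 3.41% and 6.23% of all genes. SQSTM1 was lower (-0.41 ± 0.08, adjusted p = 0.00017), WIPI2 was lower (-0.33, adjusted p = 0.0237) and ATG16L1 higher (0.70, adjusted p = 0.00696). In DKO Torin none was higher and 3 were lower, or 0% and 7.5% of the 40 against 5.03% and 7.03% of all genes. The 3 were SQSTM1 (-0.24, adjusted p = 0.0266), WIPI2 (-0.34, adjusted p = 0.0165) and ATG2A (-0.49, adjusted p = 0.0174). Without 1 library the SQSTM1 call in TFE3 KO held, and the others were lost on leaving out TFE3 KO Torin replicate 1 (WIPI2, adjusted p 0.0819), TFE3 KO Torin replicate 2 (WIPI2, adjusted p 0.0846), TFE3 KO Torin replicate 3 (ATG16L1, adjusted p 0.0578), WT Torin replicate 2 (WIPI2, adjusted p 0.215) and WT Torin replicate 3 (ATG16L1, WIPI2, adjusted p 0.0745 to 0.271). The DKO calls were lost on leaving out DKO Torin replicate 1 (WIPI2, adjusted p 0.0665), DKO Torin replicate 3 (SQSTM1, ATG2A, adjusted p 0.0618 to 0.128), WT Torin replicate 2 (SQSTM1, WIPI2, adjusted p 0.117 to 0.172) and WT Torin replicate 3 (SQSTM1, ATG2A, WIPI2, adjusted p 0.0575 to 0.229).

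In TFEB KO Torin 7 members were higher and 5 lower than in WT Torin, or 17.5% and 12.5% of the 40 against 9.39% and 8.56% of all genes. SQSTM1, at 315, 366 and 331 against 259 and 262, was higher (0.37 ± 0.08, adjusted p = 0.000494), without overlap. EPG5 (0.65), GABARAPL1 (0.53), MAP1LC3B (0.49), NRBF2 (0.42), OPTN (0.41) and RB1CC1 (0.28) were higher as well. WIPI1, at 31.7, 34.1 and 33.0 against 59.5 and 50.2, was the lowest relative to WT (-0.72 ± 0.12, adjusted p = 3.33e-05), followed by ATG4B (-0.56), ATG2A (-0.42), WIPI2 (-0.42) and ATG9A (-0.36). Of these 12 calls 4 held whichever library was left out (SQSTM1, ATG4B, WIPI1 and WIPI2). The others were lost on leaving out TFEB KO Torin replicate 1 (OPTN, ATG2A, ATG9A, adjusted p 0.0544 to 0.105), TFEB KO Torin replicate 2 (GABARAPL1, EPG5, adjusted p 0.0551 to 0.0581), TFEB KO Torin replicate 3 (OPTN, RB1CC1, ATG2A, ATG9A, NRBF2, adjusted p 0.0563 to 0.26), WT Torin replicate 2 (OPTN, MAP1LC3B, GABARAPL1, ATG2A, NRBF2, EPG5, adjusted p 0.0578 to 0.174) and WT Torin replicate 3 (OPTN, RB1CC1, ATG2A, ATG9A, NRBF2, EPG5, adjusted p 0.103 to 0.334). With the identical column kept as HBSS 12 members passed. With it kept as Torin 6 passed, and GABARAPL1 (-0.30), RB1CC1 (-0.07) and NRBF2 (-0.04) changed sign.

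Whether the response to Torin itself differed between genotypes was tested as the difference of the Torin responses. That difference includes any effect of control handling, as the WT control was labelled non-treated and the knockout controls 12 h. It passed for 2 members in TFE3 KO, where 1.06% of all genes passed, for none in TFEB KO (1.16%) and for 1 in DKO (0.506%). OPTN responded more strongly in TFE3 KO than in WT, by 0.76 ± 0.18 on the log2 scale (adjusted p = 0.0219), with lower controls and values of 62.3, 54.5 and 62.2 under Torin beside 49.2 and 51.0 in WT. CALCOCO2 did so by 0.71 ± 0.17 (adjusted p = 0.0248), and BNIP3L did so in DKO by 0.62 ± 0.16 (adjusted p = 0.04996). In TFEB KO the count of 0 stood beside 10 members with an unadjusted p under 0.05, where 13.6% of all genes had one, and edgeR and DESeq2 on the recovered reads also passed 0. None of the 3 differences held whichever library was left out. In TFE3 KO the calls were lost on leaving out TFE3 KO control replicate 1 (OPTN, adjusted p 0.0857), TFE3 KO control replicate 2 (CALCOCO2, adjusted p 0.0691), TFE3 KO control replicate 3 (CALCOCO2, adjusted p 0.0771), TFE3 KO Torin replicate 1 (OPTN, CALCOCO2, adjusted p 0.0502 to 0.0849), TFE3 KO Torin replicate 3 (OPTN, adjusted p 0.0543), WT control replicate 3 (CALCOCO2, adjusted p 0.114), WT Torin replicate 2 (OPTN, CALCOCO2, adjusted p 0.122 to 0.122) and WT Torin replicate 3 (OPTN, CALCOCO2, adjusted p 0.0763 to 0.0975). In DKO the call was lost on leaving out DKO control replicate 1 (BNIP3L, adjusted p 0.089), DKO control replicate 2 (BNIP3L, adjusted p 0.123), DKO Torin replicate 1 (BNIP3L, adjusted p 0.133), DKO Torin replicate 3 (BNIP3L, adjusted p 0.135), WT control replicate 1 (BNIP3L, adjusted p 0.0845), WT control replicate 2 (BNIP3L, adjusted p 0.0579), WT control replicate 3 (BNIP3L, adjusted p 0.12), WT Torin replicate 2 (BNIP3L, adjusted p 0.22) and WT Torin replicate 3 (BNIP3L, adjusted p 0.132). With the identical column kept as Torin none of the 3 passed, and with it kept as HBSS 3 members passed in TFE3 KO and 1 in DKO.

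A pair of members passed nowhere. AMBRA1, a partner of BECN1 and of ubiquitin ligases, and TECPR1, a lysosomal tether, passed in none of the 16 comparisons. AMBRA1 had values of 4.50 to 13.9 over the 25 libraries and TECPR1 of 17.8 to 30.9. PIK3R4, the regulatory subunit of the PI3-kinase complex, passed only between HBSS and Torin (0.61, adjusted p = 0.0324), with overlapping libraries.

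Of 58 further autophagy genes listed, 49 were found in the table, 6 of them under an older symbol, and 48 were tested. In HBSS 16 rose and 7 fell, or 33.3% and 14.6% of the 48 against 23.6% and 24.7% of all genes, with a median of 0.04. Those changed at least 2-fold were TP53INP2 (2.35, adjusted p = 3.48e-13) and TP53INP1 (1.74, adjusted p = 5.93e-06), which bind ATG8 proteins and also act in the nucleus, CALCOCO1, a receptor for endoplasmic reticulum and Golgi (1.39, adjusted p = 1.59e-05), TOLLIP (1.14, adjusted p = 1.42e-12), the ATG8 protease ATG4D (1.04, adjusted p = 1.92e-05) and, lower, the endoplasmic reticulum receptor RETREG1, listed as FAM134B (-1.01, adjusted p = 6.10e-06). TP53INP1 was at 0.164, 0 and 0.585 in the WT controls, at or below 3 reads, and at 2.53 and 3.77 in HBSS. Its change thus rests on few reads. Under Torin 11 rose and 15 fell in WT, 15 and 13 in TFE3 KO, 7 and 13 in TFEB KO, and 12 and 15 in DKO, or 14.6% to 31.2% of the 48 in each direction, where 17.4% to 26.2% of all genes passed. CALCOCO1 was the gene called 2-fold higher in all 4. Its libraries were at 2.30, 1.58 and 2.34 in the WT control, 8.05 and 6.07 in HBSS and 7.73 and 10.7 in WT Torin, and its log2 fold changes with Torin were 1.72 (WT), 2.29 (TFE3 KO), 1.24 (TFEB KO) and 2.07 (DKO). PINK1, the kinase that labels damaged mitochondria, rose in all 4 as well, by 0.95 in WT, 1.26 in TFE3 KO, 0.56 in TFEB KO and 0.97 in DKO. In the same order NIPSNAP1 rose by 0.92, 1.15, 0.89 and 0.81 and WDR45 by 0.87, 1.16, 0.60 and 1.19. HDAC6 rose by 0.90 in WT, 1.15 in TFE3 KO and 1.04 in DKO, and did not pass in TFEB KO (0.40, adjusted p = 0.0575). The response of none of the 48 genes passed as different from that of WT in any knockout, where 1.06%, 1.16% and 0.506% of all genes did.

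In the knockout controls 1 of these further genes rose and 6 fell in TFE3 KO, or 2.08% and 12.5% against 3.57% and 5.84% of all genes. In TFEB KO 4 rose and 3 fell, or 8.33% and 6.25% against 7.46% and 7.18%, and in DKO 2 rose and 8 fell, or 4.17% and 16.7% against 5.64% and 7.49%. FAM134B stood at 26.8, 25.1 and 25.6 in the WT controls, 8.30, 12.1 and 10.3 in TFE3 KO (-1.27 ± 0.16, adjusted p = 4.77e-08), 52.1, 49.5 and 44.8 in TFEB KO and 5.92, 6.62 and 9.70 in DKO (-1.70 ± 0.16, adjusted p = 1.31e-11). The libraries of TFE3 KO and DKO were below all WT controls, and those of TFEB KO above them (0.89 ± 0.16, adjusted p = 8.18e-05). Against WT under Torin, FAM134B differed in the same directions. It changed by -1.17 in TFE3 KO (adjusted p = 4.77e-06), 1.11 in TFEB KO (adjusted p = 9.59e-06) and -1.34 in DKO (adjusted p = 2.83e-07). RUBCNL, listed as KIAA0226L and a partner of UVRAG and BECN1, rose in DKO (1.53, adjusted p = 0.000158). Against WT under Torin it was higher in DKO (1.26, adjusted p = 0.00498), and ATG4A was higher in TFEB KO (1.02, adjusted p = 0.00447). Both of these Torin calls were lost on leaving out WT Torin replicate 3. Between the knockouts, FAM134B (-2.16, adjusted p = 3.11e-15), the reticulophagy receptor CCPG1 (-1.20, adjusted p = 7.78e-08) and RUBCN, listed as KIAA0226 (-1.14, adjusted p = 1.38e-08), were at least 2-fold lower in TFE3 KO.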

How the data were processed

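Polyadenylated RNA of 501mel cells was read with QuantSeq Forward 3′ end libraries. Per the study's methods and the submitters' processing notes, reads were trimmed with trim_galore and cutadapt 2.10, mapped to hg38 with STAR 2.7.8a and tested with edgeR, and the read counter, annotation, scaling and gene filter are not given in the sources used here. The deposited table holds a normalised signal per gene and library: per-million values with a scaling factor for each library, made by the authors. In every library 100% of the values divided by the smallest step gave a whole number (tolerance 0.02 of a read), so whole reads were recovered, 4147050 to 6526392 per library. Floors cover counting error only, and the ± values are standard errors of the limma fit, which rest on the spread between libraries.

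Values were tested as log2(value + 1) with limma 3.58.1 (R 4.3.3; trend and robust options), 1 mean per group over 25 libraries, with p-values of 2-sided tests adjusted by Benjamini-Hochberg over the 13052 genes that reached 1 in 3 or more libraries. The remaining 471 genes were not tested, and all 40 members were. A fold change on this scale understates the change of low genes. A member passed at an adjusted p under 0.05 and was called 2-fold changed if its log2 fold change also reached 1 in size. The fit was tested on simulated data with known changes. The identical columns of WT HBSS replicate 3 and WT Torin replicate 1 were left out.

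As alternatives the pseudocount was set to 0.1, the filter dropped or raised to 5, and the fit made with median-of-ratios rescaling, edgeR 4.0.16 and DESeq2 1.42.0 on the recovered reads, only the groups compared, a replicate block, each library left out, and the identical column kept as either label or both. On the recovered reads edgeR called 6138 genes in HBSS and 5467 with Torin in WT, where limma called 6299 and 5724. Library values are printed for members changed at least 2-fold in any comparison of 2 groups, then for the largest changes in HBSS up to 12 members, the 2 members with the lowest adjusted p in each of the Torin, knockout control and HBSS against Torin comparisons, and members that passed in an interaction. The members and lists were chosen with earlier results of these data known. Gene names are the table's symbols, promoters are RefSeq's on GRCh38.p14.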

Additional observations from a re-analysis of the deposited data

Results flagged for a closer look

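Differences between genotypes in the response to Torin, each tested as an interaction in the limma fit, passed for OPTN in TFE3 KO against WT (difference of log2 fold changes 0.76), for CALCOCO2 in TFE3 KO against WT (0.71) and for BNIP3L in DKO against WT (0.62). In all 3 the knockout controls lay below the WT controls in group mean, while under Torin the knockout mean was the higher for OPTN and CALCOCO2 and the lower for BNIP3L. OPTN had control means of 19.6 in WT and 13.5 in TFE3 KO and Torin means of 50.1 and 59.7, CALCOCO2 control means of 42.2 and 29.4 and Torin means of 50.9 and 58.8, and BNIP3L control means of 54.1 in WT and 31.8 in DKO and Torin means of 73.6 and 67.6. None of the 3 kept an adjusted p under 0.05 in all fits that left out 1 library.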

How the results depend on the processing

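Of the 200 member values that passed in a comparison, 3 no longer passed with a pseudocount of 0.1, 1 without the filter, 0 with a minimum of 5, 7 after rescaling, 10 with edgeR, 11 with DESeq2, 15 with only the groups compared and 2 with the identical column kept as WT HBSS, all with their direction unchanged. With that column kept as WT Torin, or as both, 63 did not pass and 3 turned in TFEB KO against WT under Torin, where GABARAPL1 stood at a log2 fold change of -0.30, RB1CC1 at -0.073 and NRBF2 at -0.039 in either setting. The members that passed then numbered 3 in either setting for TFEB KO against the WT controls (11 without the column), 3 for DKO against the WT controls (6), 6 for TFEB KO against WT under Torin (12), and 15 as WT Torin and 14 as both for HBSS against Torin (28). The Torin response differed from that of WT in 0 members in either setting, for TFE3 KO (2 without the column) and for DKO (1). With only the groups compared, 5 members passed in TFEB KO against the WT controls, and the Torin response differed in 1 member in TFE3 KO and 0 in DKO. The 1 member of DKO was also lost with a pseudocount of 0.1, without the filter and after rescaling, with 0 left in each. The groups share 1 estimate of the spread in the main fit, so a column added to 1 group also enters comparisons of other groups. The cause of these losses was not tested. For the members listed under other observations, the identical column lay nearer to the other WT HBSS libraries than to the other WT Torin libraries.

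Over the fits that left out 1 library, the members that passed numbered 6 to 9 in TFEB KO against the WT controls, and under Torin 7 to 10 in TFEB KO, 1 to 2 in TFE3 KO and 0 to 3 in DKO against WT. The Torin response differed in 0 to 2 members in TFE3 KO, 0 to 1 in TFEB KO and 0 to 2 in DKO. Of the 200 values, 71 missed the threshold in at least 1 of these fits. Same-numbered libraries deviated from their group means with correlations of -0.192 to 0.143, so the numbers were not read as pairs. With a replicate block, 26 members passed in HBSS, 22 with Torin in WT and 3 in the TFE3 KO difference, and 1 of the 200 values was lost. Rescaling moved the median of all genes by at most 0.038 on the log2 scale. A member at 0 reads would have an upper limit of 0.460 to 0.711, so depth limits only the lowest members.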

Other observations

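The column that stands under the labels WT HBSS replicate 3 and WT Torin replicate 1 belongs to no comparison above, and its values are given as they are. Ranges of the other WT HBSS and WT Torin libraries follow in brackets, in that order. GABARAPL1 was at 187 (161 to 168, 29.3 to 35.1), OPTN at 58.5 (65.7 to 76.2, 49.2 to 51.0) and NBR1 at 84.3 (83.1 to 84.8, 118 to 119). SQSTM1 was at 429 (378 to 390, 259 to 262), RB1CC1 at 282 (273 to 282, 127 to 142) and ATG2A at 31.1 (28.3 to 28.3, 54.6 to 63.8). NRBF2 was at 68.7 (61.9 to 68.2, 24.9 to 27.2) and VMP1 at 237 (198 to 209.9, 90.2 to 92.2). UVRAG was at 132 (125 to 137, 60.4 to 64.7) and BNIP3L at 97.0 (96.7 to 97.1, 71.0 to 76.1). The column held a read for 12917 genes, the other WT HBSS libraries for 12895 and 12901, and the other WT Torin libraries for 13188 and 13181. Each member value listed here lay nearer to the other WT HBSS libraries than to the other WT Torin libraries, as did this number of genes. Among the members not listed, ATG4B, PIK3C3 and FUNDC1 lay within the WT Torin range and outside the WT HBSS range. Which of the labels the column belongs to was not tested.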
